A study of Rattus norvegicus with 8 samples.

Results

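Gap43, Tnik, Fat3 and Reln are 4 genes linked to the growth and guidance of axons, and they were followed across all 8 libraries by their Ensembl identifiers. They are 4 of the 32623 genes in the table of counts, and all 4 passed the filter on low counts that left 16988 genes for testing. The libraries were made from the dorsal root ganglia (DRGs) of adult Sprague Dawley rats, which hold the cell bodies of the sensory neurons of the body and limbs. There were 2 naïve males, 2 naïve females, 2 males and 2 females with chronic constriction injury (CCI) of the sciatic nerve, and each library held the pooled ipsilateral L4-L6 DRGs of 1 rat. In CCI the nerve was loosely tied with silk, and the ganglia were taken on day 14. Naïve rats had no operation, so skin incision and muscle damage go with the nerve injury in every CCI library. The estrus stage of the females was not identified.

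When a peripheral axon is damaged, the sensory neuron in the DRG shifts toward a growth state in which it makes new growth cone, cytoskeletal and adhesion proteins. Gap43 encodes a membrane protein of the growth cone that acts on actin and binds calmodulin, and it is a textbook marker of growing axons. Tnik encodes a kinase of the germinal centre kinase family that acts on the actin cytoskeleton and on Wnt signalling through Tcf7l2. Fat3 encodes a very large atypical cadherin at the cell surface that shapes neuronal processes. Reln encodes reelin, a secreted glycoprotein that binds the receptors Vldlr and Lrp8 and positions neurons in development. The 4 products thus lie in the growth cone membrane, inside the cell, at the cell surface and outside the cell.

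The sequence upstream of the start was read for Tnik, Fat3 and Reln from RefSeq on build GRCr8, because these genes stood higher after injury in the same libraries. No window was given for Gap43. The counts were made on rn6, so the positions below are those of the sequence table and not of the counted reads. Each run holds the 250 bases before the start, 5′ to 3′ along the gene, and capitals mark a matched motif.
Tnik, chr2:113112687-113112936, plus strand: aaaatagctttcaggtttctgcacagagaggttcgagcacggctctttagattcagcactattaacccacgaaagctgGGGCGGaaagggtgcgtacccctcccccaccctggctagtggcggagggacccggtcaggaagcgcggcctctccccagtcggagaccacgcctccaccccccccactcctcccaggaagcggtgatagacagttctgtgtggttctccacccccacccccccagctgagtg
Fat3, chr8:21555241-21555490, minus strand: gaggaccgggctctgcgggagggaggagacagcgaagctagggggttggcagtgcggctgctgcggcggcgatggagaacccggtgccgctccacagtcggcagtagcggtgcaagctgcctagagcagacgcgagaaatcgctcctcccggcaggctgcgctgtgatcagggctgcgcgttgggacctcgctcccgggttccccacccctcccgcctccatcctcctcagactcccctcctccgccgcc
Reln, chr4:13628318-13628567, plus strand: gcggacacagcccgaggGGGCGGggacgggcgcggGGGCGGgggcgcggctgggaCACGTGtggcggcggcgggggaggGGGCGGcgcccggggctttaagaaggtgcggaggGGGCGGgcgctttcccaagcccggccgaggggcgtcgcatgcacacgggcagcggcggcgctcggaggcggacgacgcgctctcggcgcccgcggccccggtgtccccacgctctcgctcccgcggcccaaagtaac
Both strands were searched for 5 motifs, and no motif overlapped another in these windows. The GC-box GGGCGG was found 4 times before Reln and 1 time before Tnik. Of the 33469 windows of this length, 30.5% held at least 1 and 7.41% held 3 or more. The E-box CACGTG was found 1 time before Reln, and 5.59% of windows held it. The CCAAT-box CCAAT was found in a second Fat3 window, chr8:21554473-21554722, and in 34% of all windows. The AP-1 motif TGANTCA, which 6.34% of windows held, and the CRE TGACGTCA, which 1.59% held, were in none of the 4 member windows. GC content was 80% before Reln, above that of 98.9% of windows. It was 70% in the printed Fat3 window, 58.4% in the second and 61.6% before Tnik, against a median of 51.2%.

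The libraries held 39489103 to 60818457 counts. Levels are given as CPM, the count of a gene relative to the TMM-adjusted size of its library, and they were not divided by transcript length, so they are not compared between genes. The lowest count of a member in any library was 638 (Fat3 in a naïve male) and the highest was 23905 (Gap43 in a CCI male). A gene was called when edgeR's quasi-likelihood test gave a Benjamini-Hochberg adjusted p under 0.05 over all 16988 genes and the log2 fold change (log2FC) was beyond 0.5 in size. The neuronal markers Uchl1, Snap25, Calca and Nefh, the 4 of 10 listed markers with an identifier, were detected in every library. Red blood cell transcripts set the naïve males apart, with a summed level of 119 CPM in one and 1310 CPM in the other. In females all 5 of these transcripts were called lower after CCI (median log2FC -3.14), against 340 of all 16988 genes. Their sum in females was 1227 and 1856 CPM in naïve rats and 154 and 197 CPM in CCI rats. In males 0 of the 5 were called by edgeR (adjusted p from 0.238 to 0.346). The part of these transcripts in the members' results was not tested.

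After CCI, 3 of the 4 members were called higher in males and 4 of 4 in females. The background was 9.05% of genes called higher in males and 3.69% in females. All 4 members were higher in both CCI rats than in both naïve rats of the same sex, which 36.3% of genes were in males and 30.5% in females. With 2 rats against 2, an exact permutation test of a single gene cannot give a two-sided p below 0.333, so the calls rest on edgeR's sharing of the spread across genes.

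**Figure D1:**
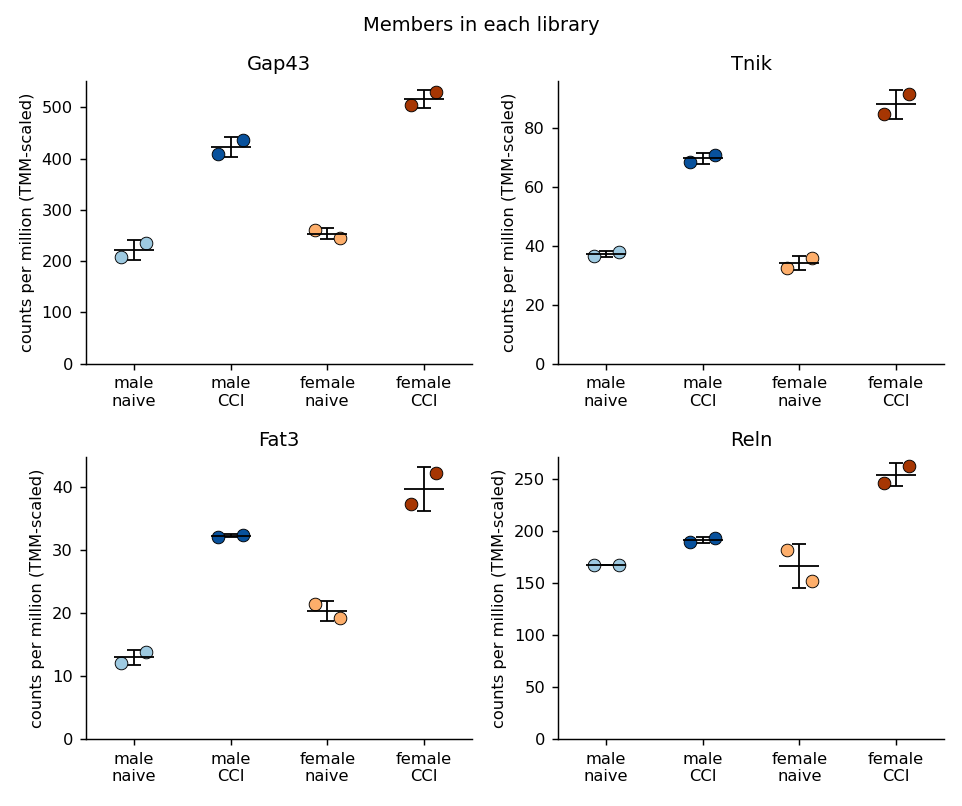
Level of each member in CPM (vertical axes, from 0) in the 8 libraries by group, with 1 point per rat, a bar at the group mean and whiskers of 1 SD (n = 2). For Gap43, Tnik, Fat3 and Reln both CCI rats lie above both naïve rats of their sex, and for Reln in males the gap is narrow (167.6 against 189 CPM).

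Gap43 (ENSRNOG00000001528) was measured at 208 and 236 CPM in naïve males and at 409.6 and 436 CPM in CCI males. In females it was 261 and 246 CPM in naïve rats and 504 and 529.7 CPM after CCI. The injured rats of both sexes thus stood apart from the naïve rats without overlap, and the least ratio between a CCI and a naïve rat was 1.73 in males and 1.93 in females. The log2FC was 0.93 ± 0.09 (SE) in males (edgeR adjusted p = 0.00565) and 1.02 ± 0.08 in females (edgeR adjusted p = 0.000861), or 1.91-fold and 2.03-fold. The 95% intervals of these folds were 1.61 to 2.26 and 1.77 to 2.32. By log2FC, Gap43 ranked above 96.6% of tested genes in males and 97.2% in females. The order of group means was naïve males (222 ± 19.9 CPM, SD, n = 2), naïve females (253 ± 10.7), CCI males (423 ± 18.9) and CCI females (517 ± 17.9). The neighbours naïve males and naïve females were not called different (log2FC 0.19, edgeR adjusted p = 0.263), nor were CCI males and CCI females (log2FC 0.29, edgeR adjusted p = 0.139). Of the close relatives of Gap43 listed, only Marcks had an identifier. This membrane protein also binds calmodulin and actin. It fell in males from 311 ± 2.32 to 198 ± 43.9 CPM (log2FC -0.65, edgeR adjusted p = 0.0295) and was at 241 ± 33.6 and 218 ± 8.47 CPM in females (edgeR adjusted p = 0.398). Marcks thus moved against Gap43 in males.

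Tnik (ENSRNOG00000012422) was at 36.6 and 38.0 CPM in naïve males, 68.4 and 70.9 CPM in CCI males, and at 32.6 and 35.9 CPM in naïve females. The CCI females had 84.6 and 91.4 CPM. The 4 naïve rats lay close together, and the CCI females were the highest of all. The log2FC was 0.91 ± 0.07 in males (edgeR adjusted p = 0.00565), or 1.87-fold with an interval of 1.66 to 2.12. In females it was 1.35 ± 0.09 (edgeR adjusted p = 0.000333), or 2.55-fold with an interval of 2.21 to 2.95. Tnik had the largest female log2FC of the 4 members, above 98.4% of tested genes. The order of group means was naïve females (34.2 ± 2.36 CPM), naïve males (37.3 ± 1.01), CCI males (69.7 ± 1.79) and CCI females (88.0 ± 4.85). Neither the naïve pair (log2FC -0.12, edgeR adjusted p = 0.416) nor the CCI pair (log2FC 0.34, edgeR adjusted p = 0.0942) was called different between sexes. The paralogous kinase Map4k4, which shares the domain plan of Tnik, went the other way in males. It fell from 579 ± 56.5 to 312 ± 0.538 CPM (log2FC -0.89, edgeR adjusted p = 0.00565), while in females it was at 417 ± 33.5 and 360 ± 25.9 CPM (edgeR adjusted p = 0.178).

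Fat3 (ENSRNOG00000011585) was at 12.2 and 13.8 CPM in naïve males and 32.1 and 32.5 CPM in CCI males. In females it was at 21.5 and 19.3 CPM in naïve rats and 37.3 and 42.2 CPM after CCI. Both naïve females lay above both naïve males. The log2FC after CCI was 1.31 ± 0.09 in males (edgeR adjusted p = 0.00565), the largest male value of the 4 members, or 2.49-fold with an interval of 2.12 to 2.92. In females it was 0.95 ± 0.10 (edgeR adjusted p = 0.00286), or 1.94-fold with an interval of 1.64 to 2.29. The order of group means was naïve males (13 ± 1.15 CPM), naïve females (20.4 ± 1.55), CCI males (32.3 ± 0.262) and CCI females (39.8 ± 3.52). The naïve sexes differed by a log2FC of 0.65 ± 0.11, which was not called (edgeR adjusted p = 0.0954), though it was called with DESeq2 (adjusted p = 0.00163) and with edgeR over all 8 libraries (adjusted p = 0.0191). After CCI the sexes were not called different (log2FC 0.30, edgeR adjusted p = 0.155). The other Fat cadherins on the list had no identifier.

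Reln (ENSRNOG00000021441) was at 167.6 CPM in both naïve males and at 189 and 193 CPM in CCI males. In females it was at 181 and 152 CPM in naïve rats and 246 and 262 CPM after CCI. Every CCI rat was above every naïve rat. The CCI males, however, stood only slightly above the highest naïve female. The log2FC in males was 0.19 ± 0.06 (edgeR adjusted p = 0.0527), or 1.14-fold with an interval of 1.03 to 1.27, and it was not called. The adjusted p was 0.00821 with DESeq2 and 0.133 with edgeR over all 8 libraries, and Reln was called in neither. The females had a log2FC of 0.60 ± 0.10 (edgeR adjusted p = 0.0146), or 1.51-fold with an interval of 1.29 to 1.78. The order of group means was naïve females (166 ± 21.1 CPM), naïve males (168 ± 0.0132), CCI males (191 ± 3.03) and CCI females (254 ± 11.1). The naïve sexes overlapped (log2FC -0.01, edgeR adjusted p = 0.979). CCI females were above CCI males by a log2FC of 0.41 ± 0.07, which was not called (edgeR adjusted p = 0.0592). The receptors Vldlr and Lrp8 and the adaptor Dab1 had no identifier, so the receiving side of this pathway was not analysed here.

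Leaving out the first CCI male brought the adjusted p of Gap43, Tnik and Fat3 to 0.0502 each in edgeR, and 0 genes were then called in males, with 6494 genes at an unadjusted p under 0.05. Their log2FC without this rat was 0.98, 0.94 and 1.33. In fits chosen after seeing this, DESeq2 on the same 3 libraries called 2474 genes and edgeR over all 7 remaining libraries called 3108, with these 3 members among them in both. Without either of the naïve males, which differed in blood transcripts, the same 3 members were called. In females, leaving out the first CCI rat left Reln uncalled (log2FC 0.65, edgeR adjusted p = 0.101), and leaving out the second left Reln (0.56, adjusted p = 0.20) and Fat3 (0.87, adjusted p = 0.079) uncalled. Leaving out the second naïve female took the log2FC of Reln to 0.48, under the threshold. Among the female calls Reln was thus lost most often, and the calls of Gap43 and Tnik in females held without any 1 rat.

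**Figure D2:**
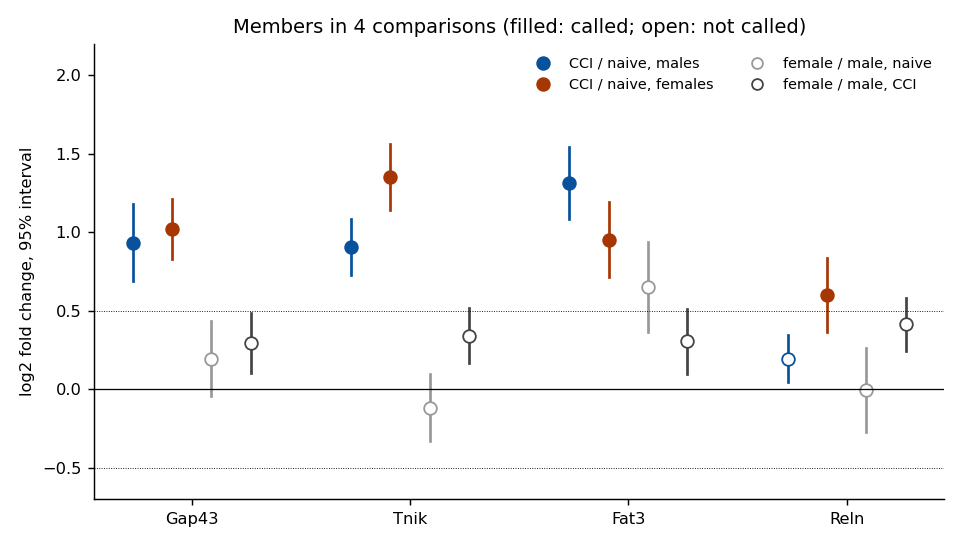
Log2 fold change (vertical axis) of each member in 4 comparisons, with lines for the 95% interval from edgeR, filled points for called values and open points for values not called, and dotted lines at a log2FC of 0.5 in either direction. Filled points appear for CCI against naïve rats of both sexes except for Reln in males, and no comparison of females with males is filled.

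Females were compared with males directly in each state. In naïve rats 0 of the 4 members were called by edgeR, against 0.0706% of genes. An unadjusted p under 0.05 was found for 1 member and 25.6% of genes, and DESeq2 called 1 member and 6.79% of the genes to which it gave an adjusted p. For 3 of the 4 members the naïve sexes did not overlap, as for 60.0% of genes. After CCI, 0 of the 4 were called by edgeR, against 1.06% of genes, and 0 by DESeq2, against 2.51%. In DESeq2 the adjusted p was 0.00281 for Gap43, 0.00458 for Tnik and 2.42e-06 for Reln, so these missed the call only through the log2FC threshold. For Fat3 the DESeq2 adjusted p was 0.0894. All 4 members had an unadjusted p under 0.05 in edgeR, as did 18.3% of genes. In all 4 members both CCI females were above both CCI males, which held for 24.7% of genes. The CCI females exceeded the CCI males by 1.23-fold for Gap43 and Fat3, 1.27-fold for Tnik and 1.33-fold for Reln. The intervals of these folds ran from 1.07 to 1.40 for Gap43, 1.12 to 1.43 for Tnik, 1.07 to 1.42 for Fat3 and 1.18 to 1.49 for Reln.

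Whether CCI changed a member more in one sex was tested as the interaction of sex and CCI over 8 libraries, where 1.59% of genes passed an adjusted p of 0.05. No member passed in edgeR, and 3 of 4 had an unadjusted p under 0.05, as did 24.0% of genes. DESeq2 called 2 members, Tnik (adjusted p = 0.017) and Reln (adjusted p = 0.0287), and 13.1% of the genes to which it gave an adjusted p. The female minus male difference of log2FC was 0.46 ± 0.11 for Tnik (edgeR adjusted p = 0.0707) and 0.42 ± 0.13 for Reln (edgeR adjusted p = 0.110). It was -0.35 ± 0.14 for Fat3 (edgeR adjusted p = 0.180) and 0.10 ± 0.12 for Gap43 (edgeR adjusted p = 0.636). Tnik and Reln thus leaned to the females, Fat3 to the males and Gap43 to neither, and none of these differences met the threshold. The interval for Gap43, from -0.17 to 0.37, still allows a difference in either direction.

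**Figure D3:**
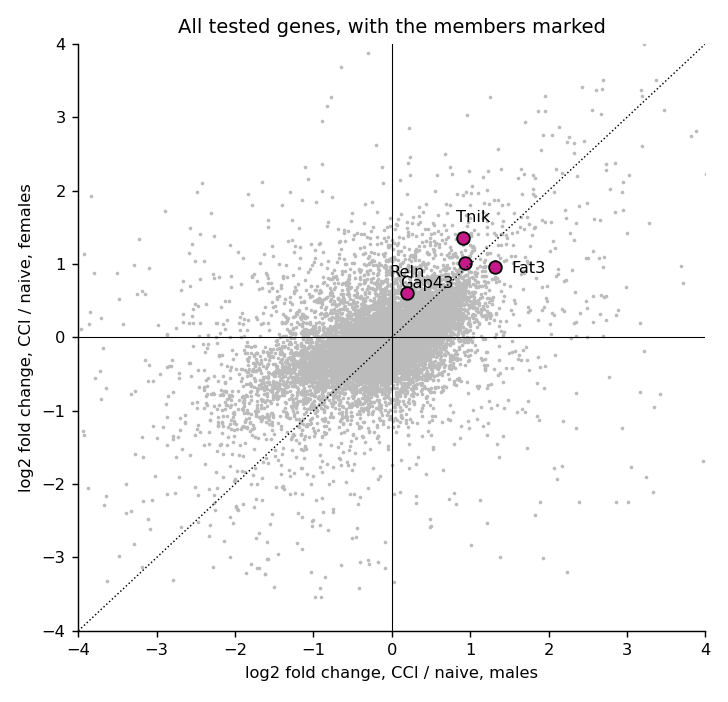
Log2 fold change after CCI in males (horizontal axis) and females (vertical axis) for the 16988 tested genes in grey, of which 62 lie beyond the axis limit of 4, with the members in magenta and a dotted line of equal change. Gap43 lies near that line, Tnik and Reln above it and Fat3 below it.

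The proportion of one member to another was followed within each library, where it does not depend on library size. Reln per 100 CPM of Gap43 was 80.6 and 71.0 in naïve males and 46.2 and 44.3 in CCI males, and in females 69.5 and 61.7 in naïve rats and 48.8 and 49.4 after CCI. Both sexes thus had less Reln per Gap43 after injury, without overlap. Fat3 per 100 CPM of Tnik was 33.4 and 36.4 in naïve and 46.9 and 45.8 in CCI males. The females had 65.9 and 53.7 in naïve rats and 44.1 and 46.2 after CCI, so that the injured rats of both sexes met at a similar ratio from opposite sides. This difference between the sexes was not tested. Tnik per 100 CPM of Gap43 overlapped between naïve and CCI males (16.1 to 17.6 against 16.3 to 16.7) and was 12.5 and 14.6 in naïve and 16.8 and 17.3 in CCI females. Across the 8 libraries the Pearson correlation of log2 CPM was 0.97 between Gap43 and Tnik and between Gap43 and Fat3, and 0.88 between Gap43 and Reln. These points share the injury groups, so the values describe the same contrast again.

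The summed level of the 4 neuronal markers was also higher in CCI males, at 10810 and 11270 CPM against 6500 and 7546 CPM. Of these markers 3 of 4 were called higher in males (median log2FC 0.66, against -0.01 for all genes) and 0 of 4 in females (median 0.18, against -0.02), where the sum was 8443 and 8645 in naïve and 8871 and 10170 CPM in CCI rats. None of the 4 markers in females was called by edgeR, with adjusted p from 0.204 to 0.431. Over all 16988 tested genes, 2126 were called lower in males and 340 in females. The 5 Schwann cell and myelin markers with an identifier were all called lower in males, where their sum went from 9819 to 11980 CPM down to 2913 to 3038 CPM. In females 2 of the 5, Mbp and Ncmap, were called lower, and the sum was 6623 to 8258 against 3559 to 4672 CPM. Mbp alone had 6433 and 5113 CPM of this sum in naïve females and 3300 and 2336 CPM after CCI. Prx (log2FC -0.37), Sox10 (-0.05) and Mag (-0.02) were not called in females. Fabp7, the 1 of 6 listed satellite glia markers that had an identifier, was called lower in both sexes (log2FC -0.88 in males and -0.73 in females). All 3 fibroblast markers with an identifier, Col1a1, Dcn and Pdgfra, were called lower in males (-0.68, -0.77 and -0.52). In females 0 of 3 were called, and Dcn had a log2FC of -0.37 (edgeR adjusted p = 0.0490), under the size threshold. Gfap, the 1 of 6 genes listed for spinal cord that had an identifier, was called lower in males (-0.96). In females Gfap had a log2FC of 0.65 and was not called (edgeR adjusted p = 0.165). The female groups overlapped, at 39.5 and 28.8 CPM in naïve rats and 70.1 and 37.4 CPM after CCI. Spinal cord content was not assessed by this 1 gene. Cd74, the 1 of 7 listed macrophage markers that had an identifier, was called in neither sex. Markers with an identifier, like the list genes below, come from tables of genes that the authors had called in these libraries. Many of them, including the 4 neuronal markers, had an identifier through lists of genes that differed between the sexes. Their counts of called genes thus do not stand as independent evidence, also beside the medians of all genes. The part of these cell types in the members' results was not tested. In whole ganglia, more neurons among the cells sampled and more RNA of a gene per neuron cannot be told apart.

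Set against the neuronal markers, Gap43 was at 31.3 to 32.0 CPM per 1000 CPM of marker in naïve males and 37.9 to 38.7 in CCI males, a ratio of means of 1.21. In females it was at 29.1 to 30.2 and 52.1 to 56.9, a ratio of 1.84. Tnik stood 1.18-fold higher in CCI males and 2.31-fold higher in CCI females on this scale, and Fat3 1.58-fold and 1.75-fold. For these 3 genes the CCI rats remained above the naïve rats of their sex without overlap. Reln differed, being lower in CCI males (17.2 to 17.5 against 22.2 to 25.8, a ratio of 0.722) and higher in CCI females (25.7 to 27.7 against 17.9 to 21.0, a ratio of 1.37). The marker sum was itself higher in CCI males. Its 4 genes had identifiers through the authors' lists of genes that differed between the sexes. A difference between the sexes in these ratios thus does not stand as independent evidence. Nefh alone had 3320 and 4019 CPM of the marker sum in naïve males and 5658 and 5822 CPM in CCI males. In females it had 4224 and 4282 CPM in naïve rats and 4612 and 5407 CPM after CCI. The ratios to this sum are given as a description with no test.

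**Figure D4:**
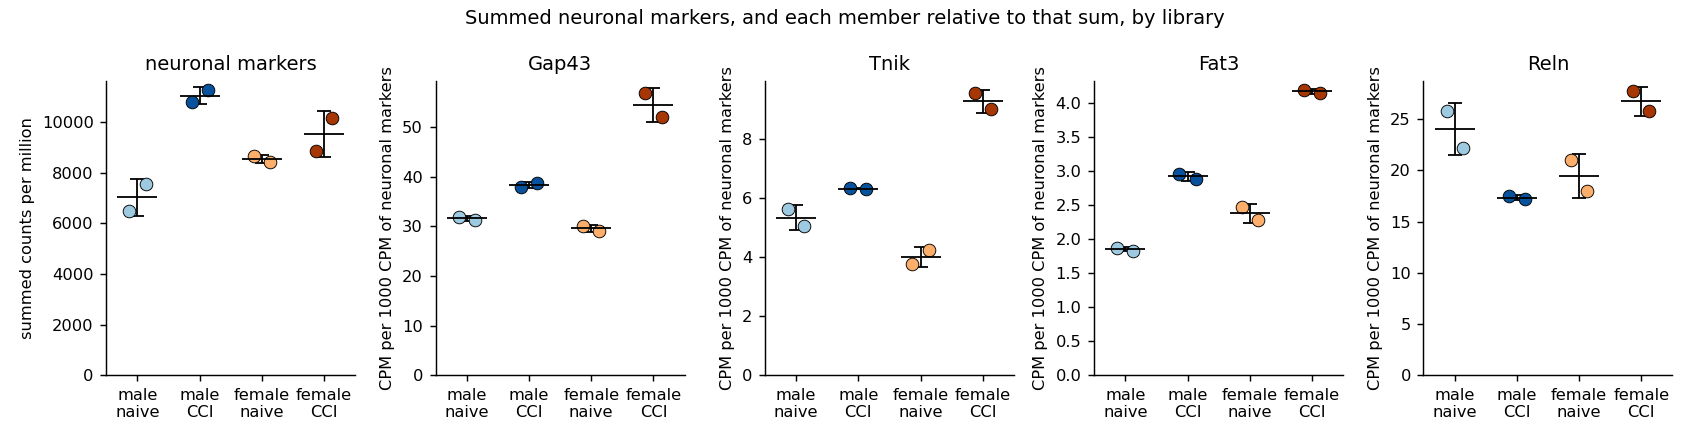
Summed level of 4 neuronal markers (left, in CPM) and each member per 1000 CPM of that sum, in the 8 libraries by group, with 1 point per rat, a bar at the mean and whiskers of 1 SD (n = 2). Gap43, Tnik and Fat3 remain higher in CCI rats of both sexes on this scale, while Reln is lower in CCI males and higher in CCI females.

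Other genes of the same pathways were described from 8 lists. Only genes with an identifier could be followed. These come from tables of genes that the authors had called in these libraries, most of them for a difference between the sexes. The counts below thus do not stand as independent evidence of direction or of a sex difference. Among growth-associated cytoskeletal genes 6 of 7 were called higher in males (median log2FC 0.65) and 4 of 7 in females (0.51), and none lower. Stmn4, a stathmin that binds tubulin, rose in both sexes (1.46 ± 0.10 and 1.40 ± 0.13), as did Stmn2 (0.91 ± 0.09 and 0.51 ± 0.09) and the tubulin gene Tubb2b (1.02 ± 0.09 and 1.16 ± 0.09). The neurofilament gene Nefm rose in males (0.63 ± 0.10) and had a log2FC of 0.18 ± 0.14 in females. Tubb6 rose in females (0.90 ± 0.10) and had 0.26 ± 0.08 in males. Among adhesion and growth receptors 5 of 7 were called higher in males (median 0.95) and 4 of 7 in females (0.55). Flrt3, a cell-surface protein that binds latrophilins and Unc5 receptors, had the largest change of this list in females (1.66 ± 0.09, and 1.20 ± 0.06 in males). The cell adhesion genes Nrcam (1.07 ± 0.08) and Cntn1 (0.96 ± 0.10) rose in males, and Cntn1 rose in females (0.55 ± 0.09). The cytokine receptor gene Lifr rose in both (0.95 ± 0.07 and 0.70 ± 0.09), and the laminin receptor gene Itga7 rose in females (0.63 ± 0.08) with 0.03 ± 0.08 in males. Of 3 guidance genes, 2 were called higher in males and 1 in females (medians 0.998 and 0.49). These were the semaphorin receptor gene Plxna2 (1.32 ± 0.12 and 0.83 ± 0.10) and, in males, the Slit receptor gene Robo2 (0.998 ± 0.11).

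Of the 3 regeneration transcription factors with an identifier, 1 was called in males and 3 in females, all higher (medians -0.32 and 0.90). Atf3, the stress factor that marks axotomized sensory neurons, rose by a log2FC of 2.61 ± 0.07 in males and 3.37 ± 0.09 in females. Cebpd rose in females (0.56 ± 0.11) and had -0.46 ± 0.09 in males, under the size threshold. The immediate early gene Fos rose in females (0.90 ± 0.18) and had -0.32 ± 0.18 in males. Around Tnik, 2 of 5 genes were called higher in males and 2 lower (median 0.48), and in females Tnik alone was called (median of the 5 genes -0.00). Tcf7l2, the Wnt effector that Tnik phosphorylates, fell in males (-1.16 ± 0.08) and had -0.47 ± 0.15 in females. The neuronal JNK gene Mapk10 rose in males (0.55 ± 0.07). Around Fat3, 1 of 3 genes was called in each sex, Fat3 itself, and the medians were 0.48 in males and 0.15 in females. In the reelin list 0 of 3 were called higher in males and 1, Reln itself, in females (medians -0.43 and -0.04), and the ephrin gene Efnb1 fell in males (-0.66 ± 0.06). Of the 3 growth cone membrane genes, Gap43 was called higher in both sexes and Marcks lower in males (medians 0.43 and -0.02). Identifiers were found for 5 of 17 genes listed around Tnik, 3 of 24 around Fat3 and 3 of 18 for reelin. Among these, no gene other than the members was called higher in females, where 3.69% of all tested genes were. The other genes of these lists were not followed.

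**Figure D5:**
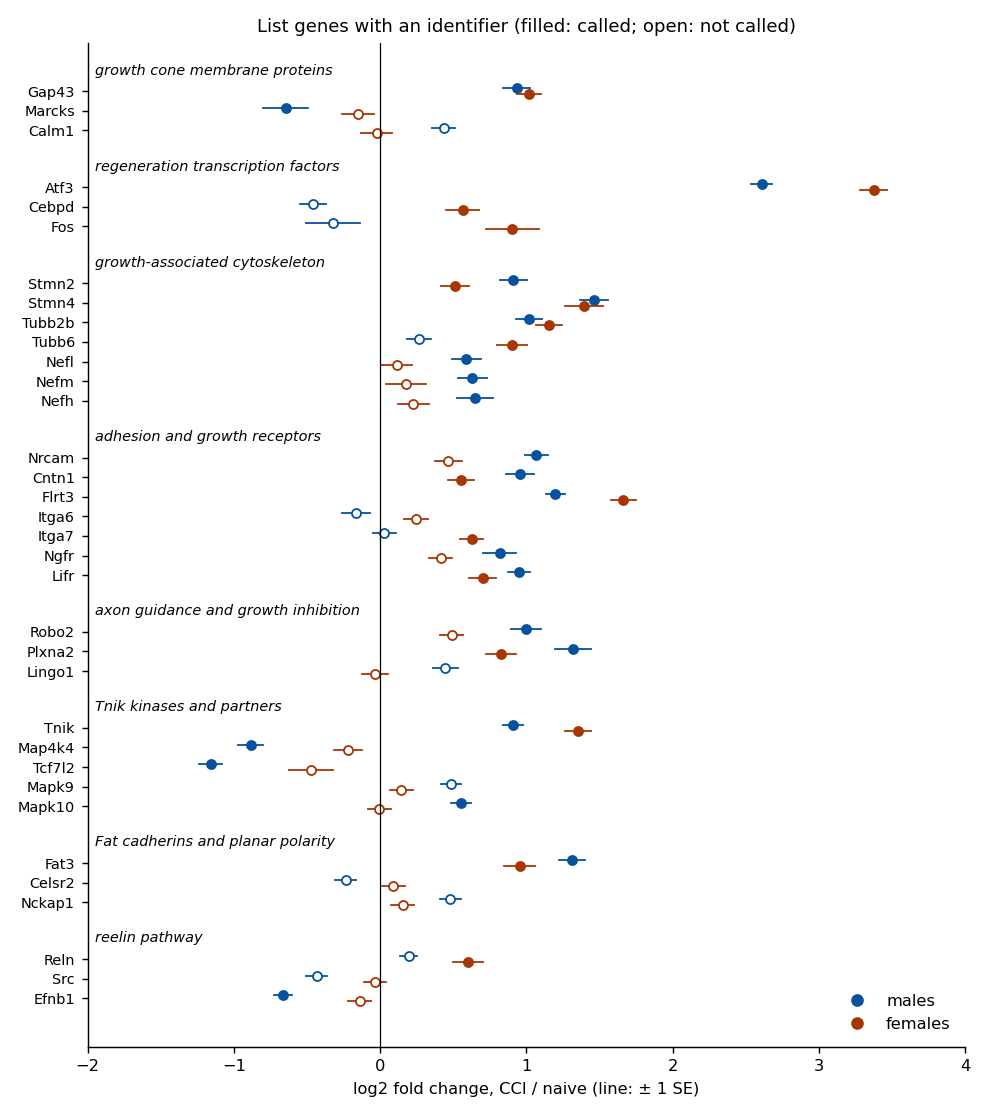
Log2 fold change after CCI (horizontal axis, with lines of 1 SE) in males (blue) and females (brown) for the genes of 8 lists that had an identifier, with filled points for called values. Cytoskeletal and adhesion genes lie mostly to the right of 0 in both sexes, Atf3 lies farthest right, and Map4k4, Tcf7l2, Marcks and Efnb1 lie left of 0 in males.

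Genes with a pattern like that of each member were ranked by the Pearson correlation of log2 CPM over 8 libraries, among the 13082 genes whose mean log2 CPM reached 1. The 5 closest to each member had correlations of 0.993 to 0.995 for Gap43, 0.994 to 0.998 for Tnik, 0.991 to 0.996 for Fat3 and 0.980 to 0.990 for Reln. Of these 20 genes only Flrt3 (0.996, with Tnik) and Golgb1 (0.981, with Reln) had a symbol. Golgb1 encodes a large Golgi protein. A correlation above 0.95 was found for 411 genes with Gap43, 309 with Tnik and 366 with Fat3, but for 27 with Reln. Reln thus had far fewer genes with a like pattern. Among the 1841 genes with a symbol, a restriction chosen after the values were seen, the closest to Gap43 was Gal (0.992), the neuropeptide galanin. The closest to Tnik after Flrt3 was Atf3 (0.991), and to Fat3 it was Stmn4 (0.979). After Golgb1, the closest to Reln was Macf1 (0.967), a linker of actin and microtubules with a log2FC of 0.22 in males and 0.60 in females. The points share libraries and injury groups, so the correlations describe likeness of pattern only.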

How the data were processed

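RNA-seq counts were analysed in 8 libraries of DRGs, 2 rats in each of 4 groups assigned by their labels. According to the study's methods, poly(A) RNA went into directional libraries for paired-end sequencing, and the reads were called with CASAVA 1.8.2 (named in the submitters' processing notes), aligned to rn6 with HISAT2 and cleared of ribosomal RNA reads. The deposited values are raw counts per Ensembl gene, made by the authors with featureCounts, without normalization or batch correction. The libraries were sequenced in 2 batches, and the batch of each library is not given in the sources used here.

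Of 32623 genes, 16988 passed edgeR's filterByExpr (minimum count 10, minimum total 15). TMM normalization and quasi-likelihood tests (R 4.3.3, edgeR 4.0.16) were run on the 4 libraries of each comparison, or on 8 for the interaction, which was called at an adjusted p under 0.05 alone. The SE is the log2FC divided by the square root of F. CPM used TMM factors, with a prior count of 2 for log2 CPM. DESeq2 1.42.0 was an alternative. The comparison of naïve sexes shares its libraries with the comparisons of CCI and naïve rats, and the comparison of CCI sexes likewise. The scripts were tested on simulated data, in which the share of false calls was above the nominal level, so adjusted p-values close to the threshold are weaker evidence than their value says.

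The members and lists were chosen with earlier results of these data known. Named genes were the members, their nearest relatives, up to 3 genes per direction and list with the smallest adjusted p among those called in each sex, and the 5 genes closest to each member by correlation. Symbols were paired with 1961 identifiers through tables of the study.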

Additional observations from a re-analysis of the deposited data

Results flagged for a closer look

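The response to CCI differed between the sexes at an edgeR adjusted p under 0.05 for 5 of the list genes named beside the members, and for no member. The share over all tested genes was 1.59%, but only list genes called after CCI in males or females were looked at here. The list genes came from tables of genes that the authors had called in these libraries, most of them for a difference between the sexes. Of the 5 genes below, Cebpd, Itga7, Efnb1 and Mapk10 had an identifier only through such lists of sex differences. This count is thus not independent evidence of a sex difference. Of the 5 Schwann cell and myelin markers with an identifier, 3 passed as well. The female minus male difference of log2FC was 0.78 for Atf3 (adjusted p = 0.0411), 1.03 for Cebpd (0.0405), 0.61 for Itga7 (0.0483), 0.54 for Efnb1 (0.0469) and -0.55 for Mapk10 (0.0483). The smallest adjusted p over all genes was 0.0402, and from 0 to 563 genes passed when 1 library was left out.

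The ratio of Fat3 to Tnik moved in opposite directions in the sexes, with every CCI rat above both naïve rats in males (ratio of means 1.33) and below both in females (0.754). Reln relative to the neuronal markers was lower in both CCI males (0.722) and higher in both CCI females (1.37). The CPM of Reln itself was higher in both CCI rats of each sex. The marker sum, which includes Nefh, was 1.57-fold higher in CCI males and 1.11-fold higher in CCI females. Its genes had identifiers through the authors' lists of sex differences. The opposite directions of Reln on this scale thus do not stand as independent evidence. For neither ratio was the difference between the sexes tested.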

How the results depend on the processing

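No member changed direction after CCI in either sex under any alternative run, and the medians of all genes moved by under 0.1 (log2) with DESeq2's size factors. Only Reln between the naïve sexes reversed, with a log2FC from -0.13 to 0.13 over the fits that left out 1 library. Without the log2FC threshold 6447 genes were called in males and 1560 in females, with the same number of members. Between the naïve sexes, 996 genes and 1 member (Fat3) were called with DESeq2, 906 genes and 1 member (Fat3) with edgeR over all 8 libraries, and 130 genes without the filter on low counts, against 12. Between the CCI sexes, 394 genes were called with DESeq2 and 284 without the filter, against 180. For the interaction, DESeq2 called 1618 genes and 2 members, and the fit without the filter called 1032 genes and 1 member (Tnik), against 270 and 0.

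Leaving out 1 library gave 0 to 3722 genes and 0 to 3 members in males, and 84 to 1836 genes and 2 to 4 members in females. It gave 6 to 327 genes between the naïve sexes, 32 to 656 between the CCI sexes and 0 to 563 for the interaction. For the interaction, 0 to 2 genes passed without either CCI rat of either sex, the first naïve male or the first naïve female, with 2728 to 3887 genes at an unadjusted p under 0.05 in these fits. With 1 rat left in a group, that rat is assumed to vary like the others.

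With the replicate number as a block, 4478 genes were called in males, 1180 in females, 6 between the naïve sexes, 68 between the CCI sexes and 314 for the interaction, and no member's call changed. Deviations of equally numbered rats correlated at 0.731 between the naïve and CCI males and at -0.02 to 0.142 between other groups, and the labels do not say that a number marks a shared batch or day. The column names of the first naïve and first CCI male alone carry an added letter a, whose meaning is not given in the sources used here. The cause of these shifts was not tested. Depth limits the members little, but 2 rats per group limit every p-value.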
